A study of Mus musculus with 16 samples.

Results

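The genes described here encode the proteasome, the protease that degrades ubiquitin-tagged proteins, together with its activators, inhibitor and dedicated assembly chaperones. Members were the genes whose symbol matches Psma, Psmb, Psmc, Psmd, Psme, Psmf or Psmg followed by a digit, each read from the brightest probe set that names that gene alone. This gave 48 of the 12393 genes tested on the arrays. Psmc3ip, a factor of homologous recombination, and Psme3ip1, named for binding the product of Psme3, match the pattern without encoding a proteasome part, so 46 genes form the proteasome set and these 2 are given apart. Psme2 and Psme2b share a probe set that names several genes and Psmb11, the thymic catalytic subunit, has no probe set listed, so they were not analysed here. The symbol rule uses no measured value, while the choice among probe sets of a gene uses their mean over the 16 arrays.

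RNA had been taken from naive T cells (CD25-, CD62L high, CD44 low) sorted from spleen and lymph nodes of C57BL/6 mice. WT mice carried floxed Gabpa alleles (Gabpa f/f), and KO mice carried the same alleles with a CD4-Cre transgene, which becomes active in thymocytes that express both CD4 and CD8, so both lineages of mature KO cells descend from cells that met the recombinase. The DNA-binding subunit of the Ets factor GABP is encoded by Gabpa. CD4 and CD8 cells of each genotype were profiled straight after the sort (0 h) or after 18 h of culture with plate-bound anti-CD3, anti-CD28 and added IL-2, which stimulate the T cell receptor, a costimulatory receptor and cytokine signaling. This makes 8 groups of 2 arrays, 16 in all, and neither the age of the mice nor the number of mice behind an array was given in the sources used here. Values are log2 array values, and a difference of 1 is a fold of 2. Differences carry their standard error (SE) and adjusted p from limma, with n = 2 arrays a group. The labels call the arrays of a group biological replicates without saying whether they came from separate mice, so p-values measure the spread between these samples.

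The 26S proteasome is built from a barrel, the 20S core, and a cap, the 19S regulatory particle. The core stacks outer rings of alpha subunits on inner rings of beta subunits, and Psmb5, Psmb6 and Psmb7 encode the beta subunits that cut peptide bonds. The cap recognises ubiquitin chains, removes them and threads the substrate into the core with a ring of ATPases. In lymphocytes many cores carry the interferon-inducible catalytic subunits encoded by Psmb8, Psmb9 and Psmb10 in place of the constitutive ones, a form called the immunoproteasome, which yields peptides suited to MHC class I. Caps of other kinds, PA28 (Psme1, Psme2 and Psme3) and PA200 (Psme4), can replace the 19S particle, and chaperones assemble each part.

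Some facts of the arrays touch these genes. Array CD8 KO 18 h replicate 2 had a 3' to 5' difference (mean log2 difference between 3' and 5' control probe sets of actin and Gapdh) of 3.76, against 0.46 to 1.58 in the other 15 arrays. Many counts and called differences that rest on CD8 KO cells at 18 h are therefore followed by their values without it. Those not so followed come from all arrays. The probe set for Gabpa was not lower in KO arrays, with differences of 0.59 (CD4) and 0.12 (CD8) at 0 h and of 0.72 (CD4) and 0.31 (CD8) at 18 h. The difference of 0.72 was called (adjusted p = 0.0442), a call lost in 12 of 16 fits without 1 array. Gabpb1, the partner subunit of GABP, was called higher in KO cells in all 4 contrasts, by 1.37 to 1.63. Its CD4 call at 0 h was lost in 3 of 16 fits without 1 array, and its other calls held in all 16. Whether the Gabpa probe set lies inside the deleted exons was not given in the sources used here, so it does not check the labels, and KO below means arrays labelled KO. Cd8a separated CD8 arrays (10.89 to 12.01) from CD4 arrays (4.42 to 7.56), with the highest CD4 values of 7.56 and 6.85 in the CD4 WT replicate 1 arrays. Il2ra, the IL-2 receptor chain that marks activated T cells, lay between 2.64 and 4.51 at 0 h and between 7.49 and 8.94 at 18 h. The mean over 5 B cell markers lay between 3.32 and 4.49 in every array, over 8 myeloid and dendritic cell markers between 3.93 and 4.69 and over 3 NK cell markers between 3.46 and 4.50, but single markers moved with the groups. Cst3, of the myeloid list, ran from 7.77 to 9.0032 in the WT arrays and from 4.91 to 7.02 in the KO arrays, which gave -2.06 (CD4) and -1.76 (CD8) at 0 h and -2.76 (CD4, called) and -2.05 (CD8) at 18 h. The list as a whole did not follow Cst3. Of its 8 markers, 4 (CD4) and 5 (CD8) were higher in KO than WT cells at 0 h and 6 in each lineage at 18 h. Median differences were -0.03 (CD4) and 0.12 (CD8) at 0 h and 0.09 and 0.14 at 18 h. Fcgr3, of the NK list, was called lower in CD4 KO cells at 0 h, at -1.25. Cd79b, of the B cell list, lay at 7.57 and 7.14 in CD8 WT arrays at 0 h and at 6.11 and 4.33 in CD4 WT arrays at 0 h. The rest of that list did not share this gap. Means in the same groups, CD8 before CD4, were 4.10 and 3.98 for Cd79a and 4.81 and 5.49 for Ms4a1. They were 3.385 and 3.18 for Pax5 and 2.59 and 2.50 for Ebf1. The part of other cells in the proteasome values was not tested. In bulk RNA, fewer cells of a type and less RNA per cell cannot be told apart.

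Most proteasome genes were higher after stimulation. In CD4 WT cells 29 of the 46 genes rose between 0 h and 18 h and 2 fell, where called means an adjusted p under 0.05 and a fold over 1.5. Of all genes tested, 12.2% rose and 14.0% fell by the same rule. In CD8 WT cells 22 of 46 rose and 0 fell, against 8.2% and 7.0% of all genes. The median difference of the 46 was 0.88 in CD4 WT and 0.67 in CD8 WT cells, beside -0.08 and -0.06 over all genes. Of the genes that rose, 20 did so in both lineages, which is 69.0% of the CD4 list and 90.9% of the CD8 list. These 20 reached into every larger part of the complex: Psma1, Psma2, Psma5 and Psma7 of the alpha ring, Psmb2, Psmb5, Psmb6 and Psmb7 of the beta ring, Psmc1, Psmc5 and Psmc6 of the ATPase ring, Psmd2, Psmd6, Psmd8, Psmd12 and Psmd14 of the rest of the cap, the activator gene Psme3 and the chaperone genes Psmg1, Psmg2 and Psmg3. Array medians over the 46 genes lay between 9.47 and 9.56 in the 4 resting WT arrays and between 10.17 and 10.34 in the 4 stimulated ones. Leaving out 1 array of CD8 WT cells moved their count of risen genes by over 1.5 times, to 8 without 0 h replicate 1 and to 7 without 18 h replicate 2. Of the calls, 21 of 31 in CD4 WT and 7 of 22 in CD8 WT cells held in all 16 fits that left out 1 array, the latter being Psma1, Psmb5, Psmb7, Psmc5, Psmd12, Psme3 and Psmg3.

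**Figure D1:**
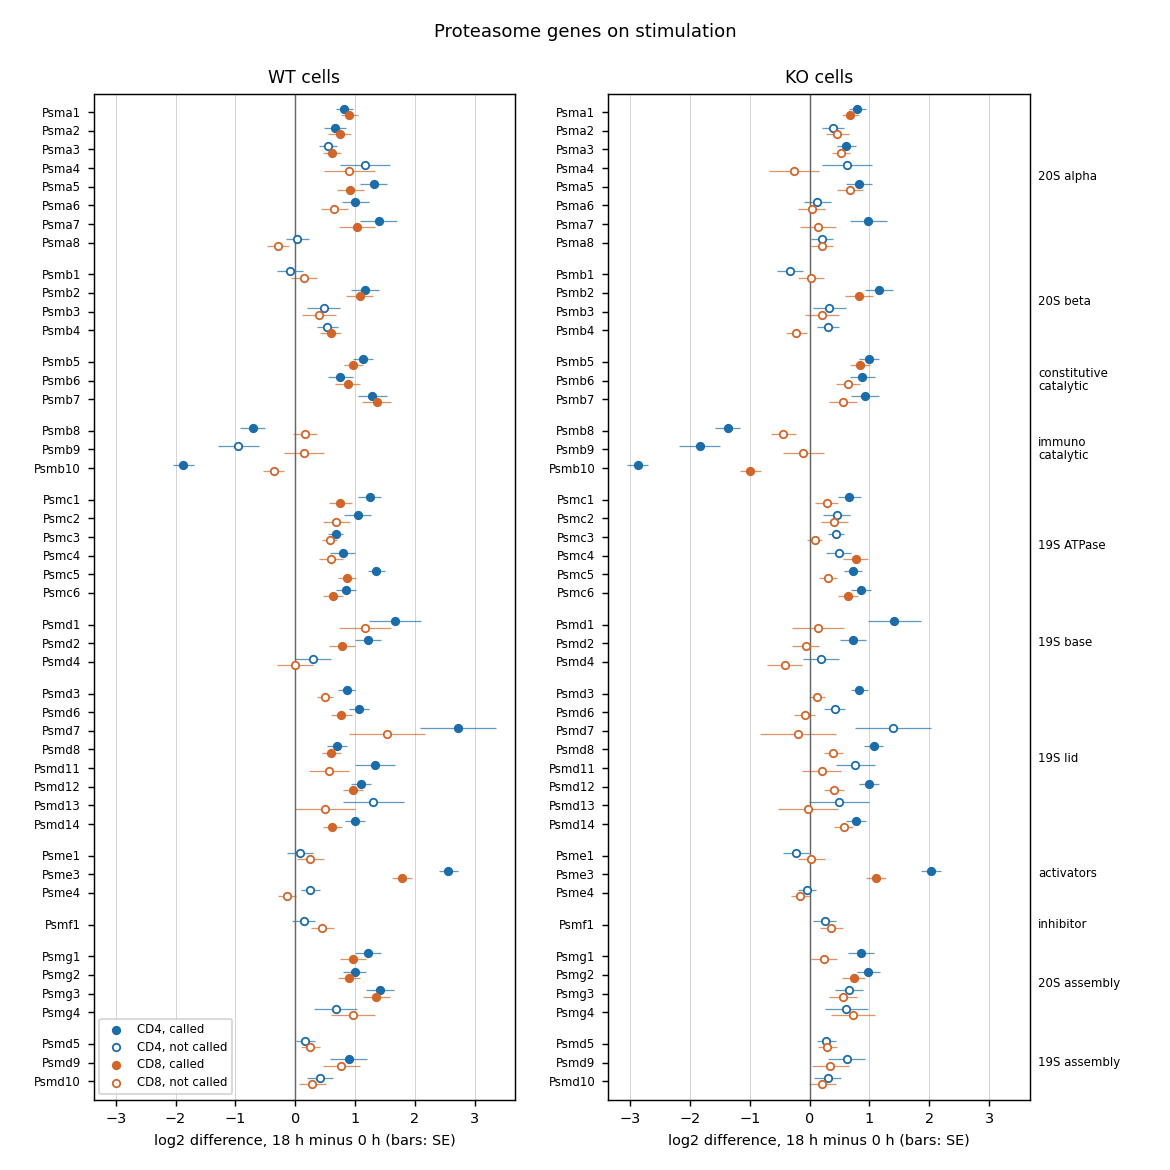
Log2 difference between 18 h and 0 h for the 46 proteasome genes (rows, grouped by role), in WT cells (left) and KO cells (right), with CD4 cells in blue, CD8 cells in orange and bars for the SE. Most points lie to the right of 0, Psmb8, Psmb9 and Psmb10 lie to the left in CD4 cells, and Psme3 and Psmd7 lie farthest right in CD4 WT cells, at 2.56 and 2.72.

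The alpha ring gates the core. Of its 8 genes, 5 rose in CD4 WT and 5 in CD8 WT cells, with medians of 0.91 and 0.82. Psma7 rose by 1.40 (SE 0.31, adjusted p = 0.00373) in CD4 WT cells and Psma5 by 1.31 (SE 0.22, adjusted p = 0.000627). Psma3 passed the fold in CD8 WT cells, at 0.62 (SE 0.16, adjusted p = 0.0165), and stayed short of it in CD4 WT cells, at 0.55 (SE 0.16, adjusted p = 0.0179). Psma8, the alpha subunit of the spermatocyte proteasome, gave values between 2.46 and 3.04 in the 16 arrays, with overlapping ranges at 0 h and 18 h. Its difference was 0.04 (SE 0.19, adjusted p = 0.925) in CD4 WT and -0.29 (SE 0.19, adjusted p = 0.382) in CD8 WT cells. Among the beta subunits without a catalytic site, Psmb2 rose in both lineages, by 1.17 in CD4 WT and 1.07 in CD8 WT cells, whereas Psmb1 differed by -0.09 (SE 0.21, adjusted p = 0.83) and 0.15 (SE 0.21, adjusted p = 0.75).

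The catalytic subunits moved apart on stimulation. The constitutive genes rose in WT cells of both lineages, and the immunoproteasome genes fell or stayed short of a call. Psmb5 encodes the constitutive subunit that cuts after hydrophobic residues. In CD4 cells Psmb5 gave 9.51 and 9.32 in WT cells at 0 h, 10.58 and 10.52 at 18 h, 9.33 and 9.37 in KO cells at 0 h and 10.39 and 10.30 at 18 h. In CD8 cells Psmb5 gave 9.27 and 9.52 in WT cells at 0 h, 10.33 and 10.41 at 18 h, 9.47 and 9.71 in KO cells at 0 h and 10.23 and 10.63 at 18 h. Every array at 18 h lay above every array at 0 h. Its differences were 1.14 (SE 0.17, adjusted p = 0.000218) in CD4 WT and 0.97 (SE 0.17, adjusted p = 0.00176) in CD8 WT cells.

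Psmb6 encodes the constitutive subunit that cuts after acidic residues. In CD4 cells Psmb6 gave 9.92 and 9.45 in WT cells at 0 h, 10.48 and 10.40 at 18 h, 9.64 and 9.32 in KO cells at 0 h and 10.38 and 10.35 at 18 h. In CD8 cells Psmb6 gave 9.27 and 9.51 in WT cells at 0 h, 10.24 and 10.30 at 18 h, 9.52 and 9.83 in KO cells at 0 h and 10.09 and 10.54 at 18 h. Values at 18 h were again above those at 0 h in each lineage, and the differences were 0.75 (SE 0.20, adjusted p = 0.0139) in CD4 WT and 0.87 (SE 0.20, adjusted p = 0.0109) in CD8 WT cells. Psmb7 encodes the constitutive subunit that cuts after basic residues. In CD4 cells Psmb7 gave 7.17 and 6.60 in WT cells at 0 h, 8.25 and 8.10 at 18 h, 7.06 and 7.49 in KO cells at 0 h and 8.16 and 8.23 at 18 h. In CD8 cells Psmb7 gave 6.65 and 6.59 in WT cells at 0 h, 7.99 and 7.97 at 18 h, 7.26 and 7.89 in KO cells at 0 h and 7.95 and 8.32 at 18 h. The resting WT arrays were the lowest of each lineage apart from CD4 WT replicate 1, which lay between the CD4 KO arrays. Psmb7 rose by 1.29 (SE 0.24, adjusted p = 0.00122) in CD4 WT and by 1.36 (SE 0.24, adjusted p = 0.00209) in CD8 WT cells.

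Psmb10 encodes the immunoproteasome subunit that replaces the product of Psmb7. In CD4 cells Psmb10 gave 10.43 and 10.48 in WT cells at 0 h, 8.64 and 8.53 at 18 h, 10.37 and 10.43 in KO cells at 0 h and 7.75 and 7.30 at 18 h. In CD8 cells Psmb10 gave 10.69 and 10.61 in WT cells at 0 h, 10.48 and 10.10 at 18 h, 10.69 and 10.91 in KO cells at 0 h and 9.76 and 9.86 at 18 h. The 4 stimulated CD4 arrays were the lowest of all 16, the KO ones below the WT ones, and the CD8 arrays at 18 h lay below the resting CD8 arrays. Psmb10 fell by 1.87 (SE 0.18, adjusted p = 9.32e-06) in CD4 WT cells and differed by -0.36 (SE 0.18, adjusted p = 0.213) in CD8 WT cells. The response of CD8 WT cells exceeded that of CD4 WT cells by 1.51 (SE 0.25, adjusted p = 0.0292), which makes Psmb10 the 1 proteasome gene called in that contrast, where 0.226% of all genes were called higher. That call was lost in 9 of the 16 fits that left out 1 array, with adjusted p = 0.0525 to 0.136, among them each fit without a WT array except CD8 WT 18 h replicate 2.

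Psmb8 encodes the immunoproteasome counterpart of Psmb5. In CD4 cells Psmb8 gave 11.32 and 11.56 in WT cells at 0 h, 11.01 and 10.44 at 18 h, 11.38 and 11.47 in KO cells at 0 h and 10.25 and 9.85 at 18 h. In CD8 cells Psmb8 gave 11.64 and 11.59 in WT cells at 0 h, 11.84 and 11.71 at 18 h, 11.51 and 11.60 in KO cells at 0 h and 11.29 and 10.93 at 18 h. The CD4 arrays at 18 h lay below those at 0 h, and the CD8 WT arrays at 18 h lay above them. Psmb8 fell by 0.71 (SE 0.21, adjusted p = 0.0198) in CD4 WT cells, with 0.16 (SE 0.21, adjusted p = 0.709) in CD8 WT cells. Without CD4 WT replicate 2 of either time the fall was lost, at -0.59 to -0.43 (adjusted p = 0.129 to 0.201). Psmb9 encodes the counterpart of Psmb6. In CD4 cells Psmb9 gave 10.62 and 10.75 in WT cells at 0 h, 10.26 and 9.21 at 18 h, 10.78 and 10.77 in KO cells at 0 h and 9.49 and 8.38 at 18 h. In CD8 cells Psmb9 gave 10.69 and 10.73 in WT cells at 0 h, 10.94 and 10.78 at 18 h, 10.84 and 11.02 in KO cells at 0 h and 10.65 and 10.998 at 18 h. The replicates of both stimulated CD4 groups were over 1 apart, with replicate 2 the lower. The difference in CD4 WT cells, -0.95 (SE 0.34, adjusted p = 0.055), did not pass the test, and that in CD8 WT cells was 0.15 (SE 0.34, adjusted p = 0.861).

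Set against its constitutive counterpart, the change of each immunoproteasome gene in CD4 WT cells was lower by 1.85 for Psmb8 with Psmb5, by 1.70 for Psmb9 with Psmb6 and by 3.16 for Psmb10 with Psmb7. In CD8 WT cells these gaps were 0.81, 0.73 and 1.72. They are given as differences of log2 differences, without a test, since array values of separate probe sets are not on one scale.

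**Figure D2:**
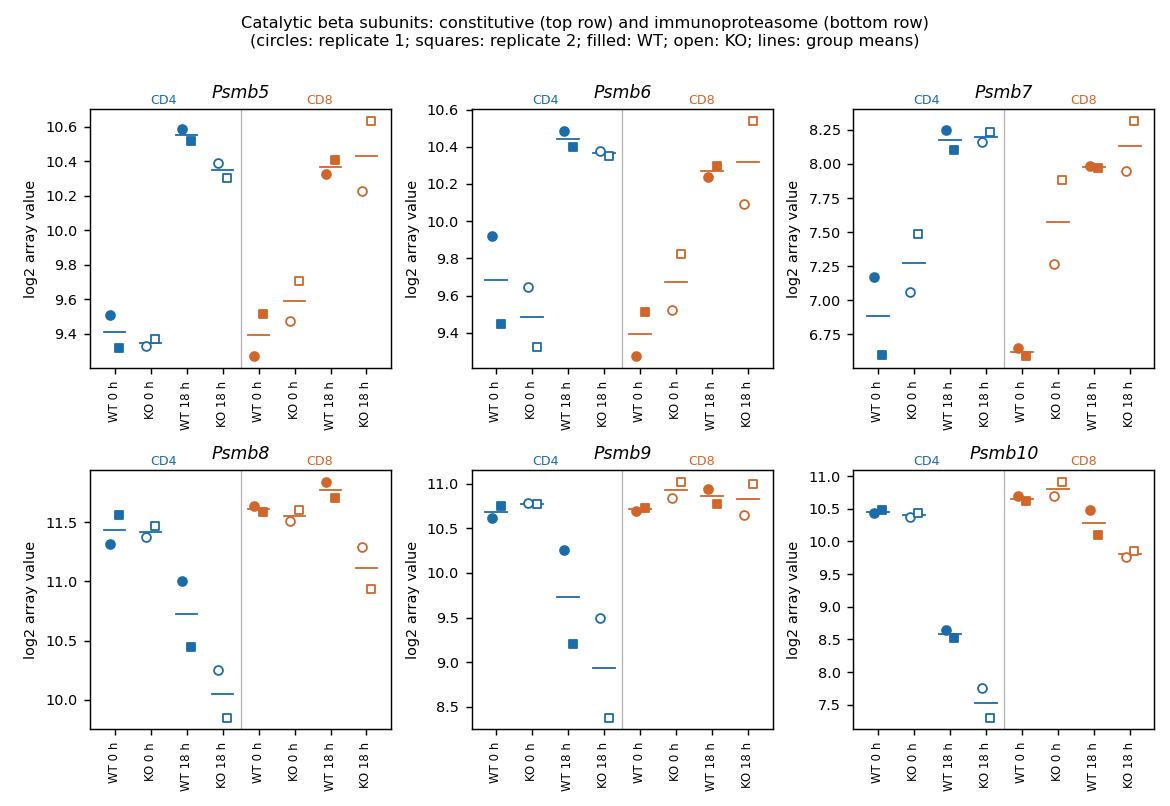
Log2 array values of the constitutive catalytic genes Psmb5, Psmb6 and Psmb7 (top row) and the immunoproteasome genes Psmb8, Psmb9 and Psmb10 (bottom row) in each array, by group. The top row is higher at 18 h than at 0 h in both lineages, and Psmb10 is lowest in stimulated CD4 KO cells, at 7.75 and 7.30.

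The ATPase ring unfolds substrates. All 6 of its genes rose in CD4 WT cells and 3 of 6 in CD8 WT cells, with medians of 0.95 and 0.66. Psmc5 rose by 1.35 (SE 0.14, adjusted p = 2.35e-05) in CD4 WT and by 0.86 (SE 0.14, adjusted p = 0.00159) in CD8 WT cells. Of the 8 lid genes, 7 rose in CD4 WT and 4 in CD8 WT cells, with medians of 1.08 and 0.61. Psmd14, the lid's deubiquitinase that frees substrates of their chain, rose by 1.002 (SE 0.17, adjusted p = 0.000548) in CD4 WT and 0.62 (SE 0.17, adjusted p = 0.0217) in CD8 WT cells. Psmd4, a ubiquitin receptor of the cap, did not pass in either lineage, at 0.30 (SE 0.30) and -0.01 (SE 0.30).

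Psmd7 encodes the partner of the lid's deubiquitinase. In CD4 cells Psmd7 gave 6.45 and 7.73 in WT cells at 0 h, 9.91 and 9.71 at 18 h, 7.96 and 8.12 in KO cells at 0 h and 9.16 and 9.72 at 18 h. In CD8 cells Psmd7 gave 7.58 and 7.92 in WT cells at 0 h, 9.26 and 9.32 at 18 h, 7.97 and 7.66 in KO cells at 0 h and 8.98 and 6.27 at 18 h. Its WT arrays at 18 h lay above those at 0 h, but CD4 WT 0 h replicate 1 stood at 6.45, far below replicate 2, and CD8 KO 18 h replicate 2 was the lowest array of all. The rise was 2.72 (SE 0.63, adjusted p = 0.00559) in CD4 WT cells, and the 1.54 (SE 0.63) in CD8 WT cells did not pass. Without CD4 WT 0 h replicate 1 the CD4 WT difference was 2.08 (adjusted p = 0.0661). A dimmer one of the gene's 3 probe sets gave 0.58 (adjusted p = 0.207) in CD4 WT cells. Psmd1 encodes the larger scaffold of the cap's base. In CD4 cells Psmd1 gave 8.503 and 8.83 in WT cells at 0 h, 10.24 and 10.41 at 18 h, 8.64 and 8.75 in KO cells at 0 h and 9.96 and 10.27 at 18 h. In CD8 cells Psmd1 gave 8.87 and 8.63 in WT cells at 0 h, 9.93 and 9.91 at 18 h, 8.86 and 8.37 in KO cells at 0 h and 9.72 and 7.78 at 18 h. Stimulated arrays were above resting ones with the exception of CD8 KO 18 h replicate 2, at 7.78, and the rise passed in CD4 WT cells at 1.66 (SE 0.44, adjusted p = 0.0114), a call lost without CD4 WT 0 h replicate 1 or 18 h replicate 2 (adjusted p = 0.0634 to 0.0746).

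Of the alternative activators, Psme3 rose the most among the 46 genes when both lineages of WT cells are averaged. It encodes the nuclear PA28 gamma, which lets the core degrade some proteins without ubiquitin. In CD4 cells Psme3 gave 7.13 and 6.95 in WT cells at 0 h, 9.70 and 9.50 at 18 h, 7.73 and 7.47 in KO cells at 0 h and 9.60 and 9.66 at 18 h. In CD8 cells Psme3 gave 7.07 and 7.11 in WT cells at 0 h, 8.72 and 9.03 at 18 h, 7.91 and 7.87 in KO cells at 0 h and 8.85 and 9.14 at 18 h. Every stimulated array lay above every resting one. The rise was 2.56 (SE 0.16, adjusted p = 1.05e-06) in CD4 WT and 1.78 (SE 0.16, adjusted p = 3.54e-05) in CD8 WT cells. A dimmer one of its 3 probe sets gave 2.87 in CD4 WT cells. Psme3 kept its call in both KO groups, at 2.03 (SE 0.16) in CD4 and 1.11 (SE 0.16) in CD8 cells, the latter 0.96 without CD8 KO 18 h replicate 2.

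Psme1, a subunit of the interferon-inducible PA28, did not move with Psme3. In CD4 cells Psme1 gave 11.46 and 11.28 in WT cells at 0 h, 11.65 and 11.25 at 18 h, 11.44 and 11.26 in KO cells at 0 h and 11.33 and 10.91 at 18 h. In CD8 cells Psme1 gave 11.44 and 11.66 in WT cells at 0 h, 11.76 and 11.85 at 18 h, 11.45 and 11.81 in KO cells at 0 h and 11.40 and 11.92 at 18 h. Times overlapped in CD4 cells, and the WT differences were 0.08 (SE 0.22) and 0.25 (SE 0.22). Psmf1 encodes PI31, named as an inhibitor of the core. In CD4 cells Psmf1 gave 7.02 and 7.33 in WT cells at 0 h, 7.45 and 7.17 at 18 h, 7.19 and 7.10 in KO cells at 0 h and 7.47 and 7.32 at 18 h. In CD8 cells Psmf1 gave 7.10 and 6.95 in WT cells at 0 h, 7.48 and 7.48 at 18 h, 7.18 and 7.48 in KO cells at 0 h and 7.43 and 7.96 at 18 h. Its WT differences of 0.14 (SE 0.20) and 0.45 (SE 0.20) did not pass.

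Of the 4 chaperone genes of core assembly, 3 rose in WT cells of both lineages. Psmg1 and Psmg2 encode a pair that assembles the alpha ring, and Psmg3 and Psmg4 a second pair. In CD4 cells Psmg2 gave 9.13 and 8.86 in WT cells at 0 h, 10.07 and 9.90 at 18 h, 9.08 and 8.87 in KO cells at 0 h and 9.96 and 9.95 at 18 h. In CD8 cells Psmg2 gave 8.67 and 9.02 in WT cells at 0 h, 9.66 and 9.83 at 18 h, 8.87 and 9.14 in KO cells at 0 h and 9.54 and 9.94 at 18 h. All stimulated arrays were above all resting ones. In CD4 cells Psmg3 gave 7.89 and 7.43 in WT cells at 0 h, 9.27 and 8.89 at 18 h, 7.91 and 7.63 in KO cells at 0 h and 8.53 and 8.33 at 18 h. In CD8 cells Psmg3 gave 7.53 and 7.45 in WT cells at 0 h, 8.604 and 9.10 at 18 h, 8.08 and 8.07 in KO cells at 0 h and 8.36 and 8.88 at 18 h. The rise of Psmg3, 1.42 (SE 0.23, adjusted p = 0.000538) in CD4 WT and 1.36 (SE 0.23, adjusted p = 0.00183) in CD8 WT cells, was the largest of the 4, and Psmg2 rose by 0.99 and 0.90. In CD4 cells Psmg4 gave 8.45 and 7.66 in WT cells at 0 h, 8.91 and 8.56 at 18 h, 7.86 and 7.74 in KO cells at 0 h and 8.58 and 8.24 at 18 h. In CD8 cells Psmg4 gave 7.64 and 8.004 in WT cells at 0 h, 8.69 and 8.88 at 18 h, 7.60 and 8.31 in KO cells at 0 h and 8.10 and 9.26 at 18 h. Psmg4 did not pass in WT cells, with 0.68 (SE 0.36) and 0.96 (SE 0.36), and its resting CD4 replicates were 0.79 apart. Of the 3 chaperones of the cap, Psmd9 rose in CD4 WT cells at 0.89 (SE 0.31, adjusted p = 0.0482), a call lost in 9 of 16 fits without 1 array (adjusted p = 0.0526 to 0.325), while Psmd5 and Psmd10 stayed at 0.17 and 0.41.

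In CD4 KO cells 20 of 46 rose and 3 fell, against 11.1% and 13.2% of all genes, with a median of 0.62 beside 0.03 over all genes. The genes that fell were Psmb8, Psmb9 and Psmb10, by 1.37 (SE 0.21, adjusted p = 0.000298), by 1.84 (SE 0.34, adjusted p = 0.00139) and by 2.87 (SE 0.18, adjusted p = 5.52e-07). In CD8 KO cells 7 rose and 1, Psmb10, fell, against 3.67% and 3.87% of all genes, with a median of 0.26. Without CD8 KO 18 h replicate 2 the counts in CD8 KO cells were 3 and 1 with a median of 0.31, and without replicate 1, which leaves the array of high 3' to 5' difference alone, 12 and 5. Genes called higher in CD8 KO cells without replicate 2 were Psma1, Psmd1 and Psme3, at 0.71, 1.11 and 0.96.

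**Figure D3:**
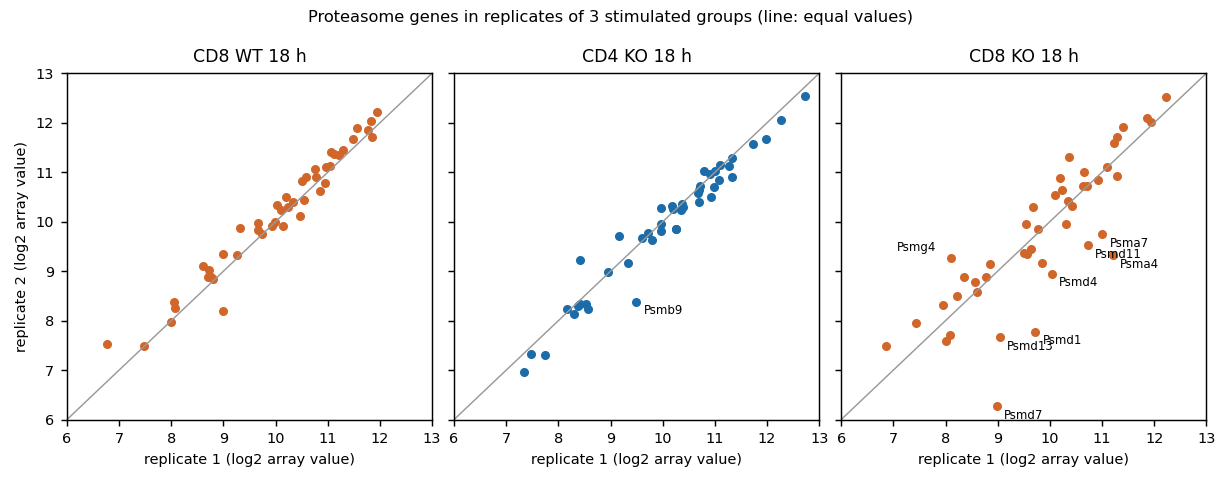
Log2 array value of each proteasome gene in replicate 2 (vertical) against replicate 1 (horizontal) for CD8 WT, CD4 KO and CD8 KO cells at 18 h, with genes over 1 apart named and Psma8, near 2.9, below the axes. In CD8 KO cells 8 genes are over 1 apart, in CD4 KO cells 1 and in CD8 WT cells 0.

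In CD8 KO cells at 18 h the replicates were over 1 apart for 8 of 46 genes, 7 of them lower in replicate 2, and the median gap was 0.37. In the other 7 groups 0 or 1 gene was that far apart, with median gaps between 0.16 and 0.29. Psmd7 (8.98 and 6.27), Psmd1 (9.72 and 7.78), Psma4 (11.21 and 9.32), Psmd13, Psma7, Psmd11 and Psmd4 were lower in replicate 2, and Psmg4 (8.10 and 9.26) was higher. The part of RNA quality in these gaps was not tested.

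The test of the difference between genotypes in the response itself called 0 of 46 genes in CD4 cells and 0 in CD8 cells by limma, beside 0.888% and 0.226% of all genes called lower and 0.524% and 0.0403% called higher. At an unadjusted p under 0.05 there were 8 genes in CD4 and 11 in CD8 cells, against 11.3% and 9.1% of all genes. The response was lower in KO than in WT cells for 39 of 46 genes in CD4 and 42 of 46 in CD8 cells, with medians of -0.27 and -0.32, while 42.4% and 43.9% of all genes lay below 0. Without CD8 KO 18 h replicate 2 the CD8 count was 39 of 46, with a median of -0.38, but 56.1% of all genes then lay below 0, and 0 of 46 were called with 8 at an unadjusted p under 0.05. Both contrasts rest on separate arrays, but the genes within one are not independent of each other. Psmb10 came nearest to a call in CD4 cells, at -1.003 (SE 0.25, adjusted p = 0.0798). Fitted with a block for the replicate number within each lineage, 1 gene was called lower in CD4 cells.

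Comparing KO with WT cells at one time, few proteasome genes passed. At 0 h 1 of 46 was higher and 0 lower in CD4 KO cells, beside 0.533% and 0.742% of all genes. In CD8 KO cells at 0 h 2 were higher and 1 lower, beside 1.13% and 0.5%. At 18 h 0 were higher and 3 lower in CD4 cells, beside 2.72% and 4.14%, and 0 higher and 2 lower in CD8 cells, beside 1.59% and 1.16%. With a block for the replicate number within each lineage, the CD8 counts at 18 h were 1 higher and 4 lower. Without CD8 KO 18 h replicate 2 they were 0 and 2, Psmc2 and Psme4 in place of Psme4 and Psmg1, with a median of -0.21. Medians over the 46 were 0.02 and 0.15 at 0 h and -0.20 and -0.21 at 18 h, CD4 before CD8, against -0.06, 0.02, 0.02 and 0.07 over all genes. The genes called were Psma6, Psmb10, Psmc2, Psme3, Psme4 and Psmg1. No proteasome gene was called for a difference between lineages in its KO effect (0 of 46 at 0 h and 0 of 46 at 18 h by limma, with 0 and 1 at an unadjusted p under 0.05), and over all genes 0.0% were called at 0 h in either direction and 0.0242% higher and 0.0161% lower at 18 h.

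**Figure D4:**
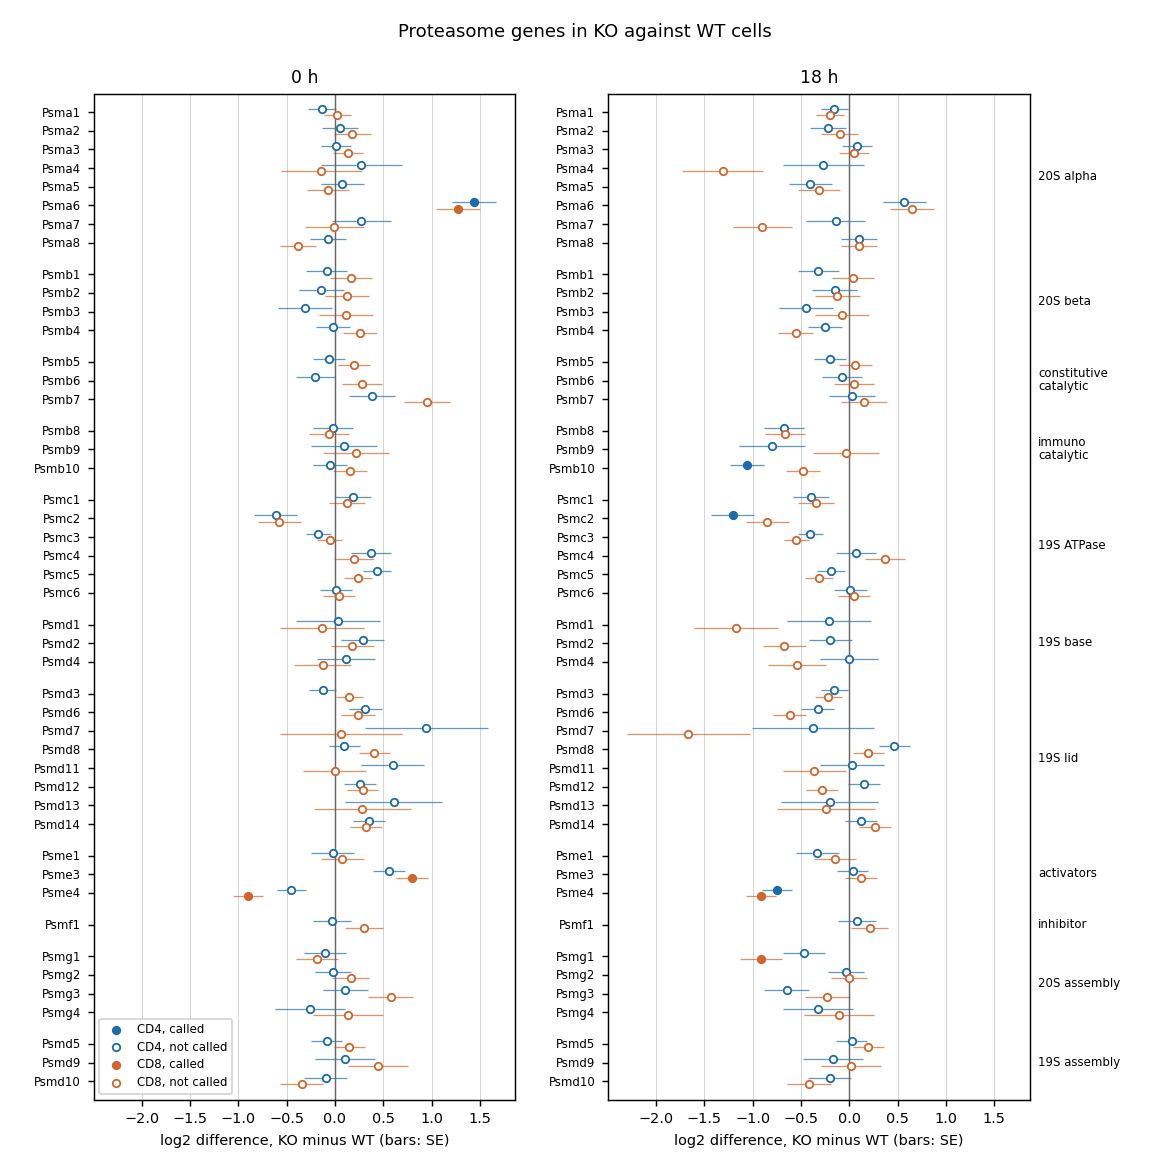
Log2 difference between KO and WT cells for the 46 proteasome genes (rows, grouped by role) at 0 h (left) and 18 h (right), with CD4 cells in blue, CD8 cells in orange and bars for the SE. Psma6 lies highest at 0 h, at 1.44 and 1.27, Psmc2 lowest in CD4 cells at 18 h, at -1.21, and Psme4 is below 0 in all 4 contrasts.

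The promoters of the 6 called genes were set beside their values because GABP binds Ets motifs. RefSeq promoter windows of mouse build GRCm38.p6, 250 bases before to 50 bases after a start site, were found for 38 of the 46 genes and searched on both strands for CCGGAAG, which reads as CTTCCGG on the other strand. It was present in 14 of 38 proteasome genes (36.8%), in 16.3% of 9887 genes tested on the arrays and in 9.9% of all genes with a window. Of the 6 called genes 5 held it, Psmb10 being the exception, and of the other 32 with a window 9 held it. The letters were chosen with the values known, and a match is a description of the sequence, not a site shown to be bound. The last 140 bases before the start site are printed below for the 5 genes, with the motif letters in capitals.
Psma6 (chr12:55398685-55398824, + strand): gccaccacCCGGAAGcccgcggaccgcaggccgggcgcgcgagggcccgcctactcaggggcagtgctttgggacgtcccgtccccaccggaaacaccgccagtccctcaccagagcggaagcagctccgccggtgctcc
Psmc2 (chr5:21785135-21785274, + strand): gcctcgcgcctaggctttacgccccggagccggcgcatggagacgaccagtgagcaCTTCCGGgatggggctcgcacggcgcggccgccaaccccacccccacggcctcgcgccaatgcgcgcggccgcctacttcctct
Psme3 (chr11:101316073-101316212, + strand): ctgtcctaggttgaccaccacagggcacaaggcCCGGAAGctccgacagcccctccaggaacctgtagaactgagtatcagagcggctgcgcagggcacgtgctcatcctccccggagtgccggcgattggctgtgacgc
Psme4 (chr11:30771635-30771774, + strand): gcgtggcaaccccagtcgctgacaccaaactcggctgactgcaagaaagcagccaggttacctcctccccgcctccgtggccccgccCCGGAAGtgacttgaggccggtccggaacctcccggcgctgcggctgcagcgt
Psmg1 (chr16:95990961-95991100, - strand): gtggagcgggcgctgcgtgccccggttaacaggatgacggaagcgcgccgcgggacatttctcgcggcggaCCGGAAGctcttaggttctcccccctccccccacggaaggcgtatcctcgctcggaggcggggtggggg
In Psmc2 the letters appear as CTTCCGG, on the other strand. RefSeq lists 2 starts for Psma6, of which the one upstream holds no match, and 2 for Psmc2, which both hold one. Matches that reach past a start site are not in these 140 bases. TGACNNNGC (GCNNNGTCA), the antioxidant response element to which Nfe2l1 and Nfe2l2 bind, was found in 6 of 38 proteasome genes (15.8%) and in 16.3% of genes tested on the arrays, among them the constitutive catalytic genes Psmb5 and Psmb6. No match of one motif shared bases with a match of the other.

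Psmc2, whose window holds CTTCCGG, encodes an ATPase of the cap. In CD4 cells Psmc2 gave 10.37 and 10.06 in WT cells at 0 h, 11.30 and 11.22 at 18 h, 9.77 and 9.43 in KO cells at 0 h and 10.26 and 9.85 at 18 h. In CD8 cells Psmc2 gave 10.06 and 10.24 in WT cells at 0 h, 10.77 and 10.91 at 18 h, 9.44 and 9.71 in KO cells at 0 h and 9.68 and 10.30 at 18 h. The KO arrays lay below the WT arrays of the same lineage and time in each of the 4 comparisons, without overlap. The differences between KO and WT were -0.61 and -0.58 at 0 h, -1.21 (SE 0.22, adjusted p = 0.00608) in CD4 cells at 18 h and -0.85 (SE 0.22, adjusted p = 0.0684) in CD8 cells at 18 h. Without CD8 KO 18 h replicate 2 the last was -1.16 (adjusted p = 0.0294). The brightest probe set is of a type that can match related sequences, and a second probe set gave -1.18 at 18 h in CD4 cells and -1.18 in CD8 cells (adjusted p = 0.00296 and 0.00832 over all probe sets). The CD4 call was lost without WT 18 h replicate 1 or KO 18 h replicate 2, with values from -1.17 to -1.0025 and adjusted p = 0.0543 to 0.0847.

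Psme4 encodes PA200, a nuclear activator tied to acetylated histones. In CD4 cells Psme4 gave 8.71 and 8.94 in WT cells at 0 h, 9.10 and 9.05 at 18 h, 8.45 and 8.30 in KO cells at 0 h and 8.38 and 8.29 at 18 h. In CD8 cells Psme4 gave 8.94 and 8.97 in WT cells at 0 h, 8.79 and 8.84 at 18 h, 8.03 and 8.09 in KO cells at 0 h and 8.09 and 7.72 at 18 h. KO arrays lay below WT arrays in all 4 comparisons without overlap. The call was reached in 3 of them, at -0.90 (SE 0.15, adjusted p = 0.0119) in CD8 cells at 0 h, -0.75 (SE 0.15, adjusted p = 0.0105) in CD4 cells at 18 h and -0.91 (SE 0.15, adjusted p = 0.00878) in CD8 cells at 18 h, with -0.45 (adjusted p = 0.255) in CD4 cells at 0 h. Without CD8 KO 18 h replicate 2 the difference in CD8 cells at 18 h was -0.72 (adjusted p = 0.0488). A second of its 3 probe sets gave -0.43, -0.81, -0.69 and -1.10 at 0 h in CD4, 0 h in CD8, 18 h in CD4 and 18 h in CD8 cells. The third is not given here, and with the mean of all 3 the call in CD8 cells at 0 h was lost. Stimulation did not move Psme4 past the test in any group. Without 1 array the call was lost in CD4 cells for WT 18 h replicates 1 and 2 and KO 18 h replicate 2 (adjusted p = 0.0519 to 0.0986), in CD8 cells at 0 h for any of its 4 arrays (0.0822 to 0.105) and in CD8 cells at 18 h for WT replicate 2 (0.0981), while the differences stayed between -0.70 and -0.92.

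Psma6, a subunit of the alpha ring, went the other way. In CD4 cells Psma6 gave 11.31 and 10.80 in WT cells at 0 h, 12.21 and 11.89 at 18 h, 12.65 and 12.34 in KO cells at 0 h and 12.72 and 12.53 at 18 h. In CD8 cells Psma6 gave 10.87 and 11.26 in WT cells at 0 h, 11.56 and 11.89 at 18 h, 12.21 and 12.47 in KO cells at 0 h and 12.22 and 12.52 at 18 h. The 4 resting WT arrays held the lowest values, and the KO arrays were high at both times. The differences between KO and WT were 1.44 (SE 0.23, adjusted p = 0.0091) in CD4 and 1.27 (SE 0.23, adjusted p = 0.015) in CD8 cells at 0 h, and 0.57 and 0.65 without a call at 18 h. The CD4 call was lost without WT 0 h replicate 2 or KO 0 h replicate 1 (adjusted p = 0.0887 to 0.105), and the CD8 call without any one of its 4 arrays at 0 h (adjusted p = 0.056 to 0.172). Its 4 probe sets gave 1.36 to 1.65 in CD4 and 1.27 to 1.51 in CD8 cells at 0 h. On stimulation Psma6 rose in CD4 WT cells by 0.999 (SE 0.23, adjusted p = 0.00463) and differed by 0.13 (SE 0.23) in CD4 KO cells.

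Psme3 was higher in resting CD8 KO cells. Its values, given with the activators, were above WT without overlap in both lineages at 0 h, by 0.56 (adjusted p = 0.166) in CD4 and by 0.80 (SE 0.16, adjusted p = 0.0307) in CD8 cells, and the 18 h differences were 0.03 and 0.12. The CD8 call was lost without any one of the 4 CD8 arrays at 0 h or either CD4 KO 18 h array (adjusted p = 0.0541 to 0.212). A dimmer one of its 3 probe sets gave 0.81 and 0.60, neither called. Psmg1 was lower in stimulated CD8 KO cells. In CD4 cells Psmg1 gave 9.11 and 8.81 in WT cells at 0 h, 10.35 and 10.0002 at 18 h, 8.97 and 8.73 in KO cells at 0 h and 9.79 and 9.62 at 18 h. In CD8 cells Psmg1 gave 8.51 and 8.73 in WT cells at 0 h, 9.31 and 9.88 at 18 h, 8.27 and 8.59 in KO cells at 0 h and 8.57 and 8.79 at 18 h. KO arrays at 18 h lay below WT arrays in each lineage, and resting arrays overlapped. The difference was -0.92 (SE 0.22, adjusted p = 0.0447) in CD8 cells, a call lost in 15 of 16 fits without 1 array (adjusted p = 0.0522 to 0.378), and -0.47 (adjusted p = 0.291) in CD4 cells. The CD8 difference was -1.03 (adjusted p = 0.0872) when CD8 KO 18 h replicate 2 was left out. Psmb10 was lower by 1.06 in CD4 KO cells at 18 h, with an SE of 0.18 and an adjusted p = 0.00305, with -0.48 (SE 0.18) in CD8 cells, or -0.53 without CD8 KO 18 h replicate 2, and at 0 h the differences were -0.05 and 0.15. Without CD4 KO 18 h replicate 2 the difference was -0.83 (adjusted p = 0.0513).

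**Figure D5:**
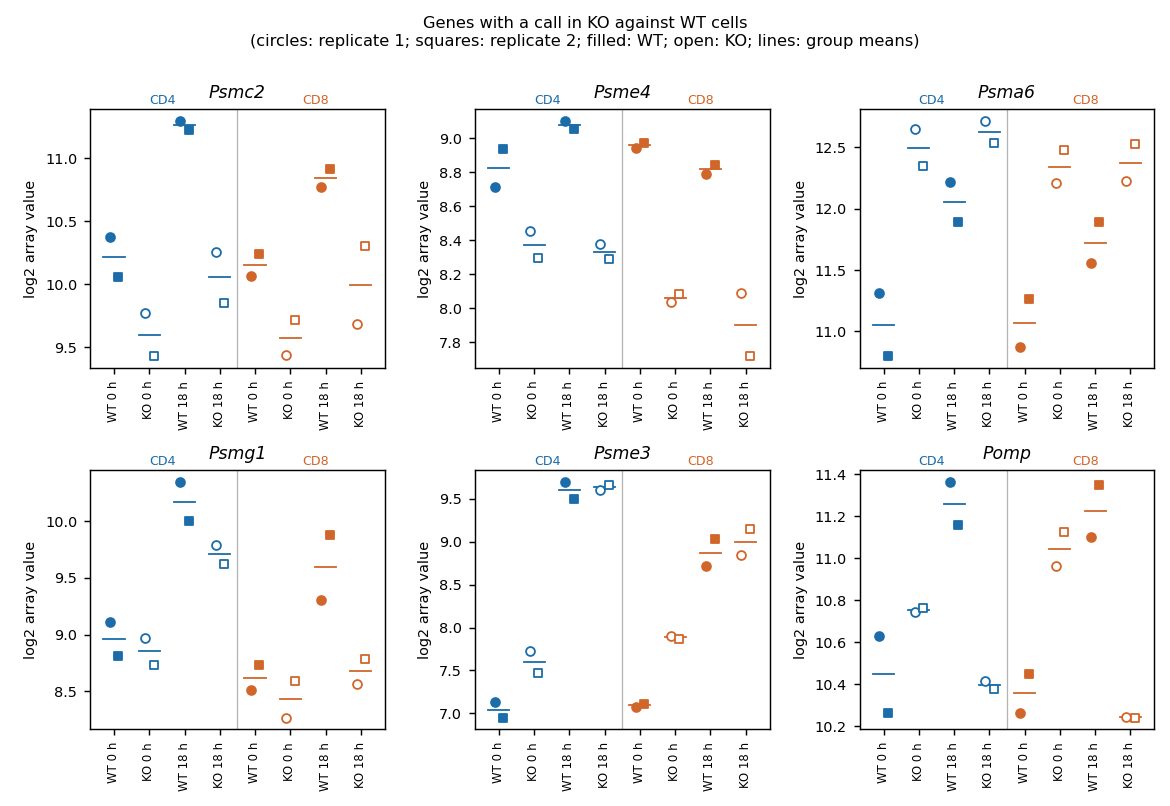
Log2 array values of Psmc2, Psme4, Psma6, Psmg1, Psme3 and the assembly factor Pomp in each array, by group. Psmc2 and Psme4 are lower in KO than in WT cells at both times, Psma6 is higher in resting KO cells, and Pomp is lower in KO cells at 18 h, at 10.24 to 10.42 against 11.10 to 11.36.

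Between lineages of WT cells at 0 h, 0 of 46 genes were called by limma and 0 at an unadjusted p under 0.05, beside 0.646% and 0.637% of all genes called higher and lower in CD8 cells. At 18 h 2 were higher and 1 lower in CD8 WT than in CD4 WT cells, beside 2.32% and 0.96%. Psmb10 was higher by 1.71 (SE 0.18, adjusted p = 0.00038) and Psmb8 by 1.05 (SE 0.21, adjusted p = 0.0144), and Psme3 was lower, at -0.73 (SE 0.16, adjusted p = 0.0303). Psmb9 differed by 1.13 (SE 0.34, adjusted p = 0.118). The call of Psmb10 held in all 16 fits without 1 array. That of Psmb8 was lost without CD4 WT 18 h replicate 2 or CD8 WT 18 h replicate 1 (adjusted p = 0.142 to 0.161), and that of Psme3 without either CD4 WT 18 h array, either CD8 WT 0 h array or CD8 WT 18 h replicate 1 (adjusted p = 0.0509 to 0.329).

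The 2 genes outside the complex behaved differently from each other. Psmc3ip gave 5.74 and 5.91 in WT cells at 0 h, 8.18 and 7.70 at 18 h, 4.64 and 4.21 in KO cells at 0 h and 5.31 and 5.16 at 18 h in CD4 cells. In CD8 cells Psmc3ip gave 5.40 and 5.55 in WT cells at 0 h, 7.26 and 8.07 at 18 h, 5.34 and 5.39 in KO cells at 0 h and 5.28 and 6.08 at 18 h. It was high in stimulated WT arrays alone, rising by 2.11 and 2.19 in CD4 and CD8 WT cells. At 0 h it was also called lower in CD4 KO cells, with means of 5.825 (WT) and 4.43 (KO). That call was lost in 12 of 16 fits without 1 array. At 18 h KO cells were lower than WT cells by 2.70 on the log2 scale in CD4, with an SE of 0.29 and an adjusted p = 0.000155, and by 1.99 in CD8 cells. The CD8 difference was -2.39 (adjusted p = 0.00221) without CD8 KO 18 h replicate 2, and without CD8 WT 18 h replicate 2 it was -1.58 (adjusted p = 0.0575). Psme3ip1 was called in no contrast between KO and WT, with differences of 0.10 to 0.38.

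Genes that work with the proteasome under other symbols were read from lists, whose counts stand beside 12.2% of all genes higher and 14.0% lower in stimulated CD4 WT cells and 8.2% and 7.0% in CD8 WT cells. Among 11 partners and assembly factors, 4 rose and 1 fell in CD4 WT and 3 rose in CD8 WT cells. Uchl5, a deubiquitinase of the cap, rose by 1.94 and 1.55, Txnl1, a thioredoxin on the cap, by 1.32 and 1.01, and Ecpas, a proteasome scaffold, by 1.19 in CD4 WT cells. Rnf181, which fell by 0.92 in CD4 WT cells, encodes a ubiquitin ligase. Pomp encodes the chaperone that brings the parts of the core together. In CD4 cells Pomp gave 10.63 and 10.26 in WT cells at 0 h, 11.36 and 11.16 at 18 h, 10.74 and 10.76 in KO cells at 0 h and 10.42 and 10.37 at 18 h. In CD8 cells Pomp gave 10.26 and 10.45 in WT cells at 0 h, 11.10 and 11.35 at 18 h, 10.96 and 11.12 in KO cells at 0 h and 10.24 and 10.24 at 18 h. The stimulated KO arrays lay within the range of resting WT arrays in CD4 cells and below it in CD8 cells, and stimulated WT arrays lay above both. Pomp rose in WT cells by 0.81 in CD4 and 0.87 in CD8. In KO cells its mean went down, from 10.75 to 10.395 in CD4 without a call and from 11.04 to 10.24 in CD8. The CD8 fall, at -0.80, was called, and lost its call only without CD8 KO 0 h replicate 2. Resting KO means lay above resting WT means, which were 10.45 in CD4 and 10.36 in CD8 cells. The KO response was lower than the WT response by 1.17 (SE 0.23, adjusted p = 0.0283) in CD4 and by 1.67 (SE 0.23, adjusted p = 0.0168) in CD8 cells. At 18 h KO cells were lower than WT cells by 0.86 in CD4 and 0.98 in CD8. When CD8 KO 18 h replicate 2 was left out, the CD8 values of Pomp were -1.67 (adjusted p = 0.0236) for the response and -0.98 (adjusted p = 0.0315) at 18 h. The 18 h calls of Pomp were lost without CD4 WT replicate 1 or CD4 KO replicate 2 (adjusted p = 0.0631 to 0.069) and without CD8 WT replicate 2 (adjusted p = 0.11). Akirin2, which brings proteasomes into the nucleus, was higher in KO cells at 18 h, at 0.72 (SE 0.15, adjusted p = 0.0114) in CD4 and 0.62 (SE 0.15, adjusted p = 0.0486) in CD8 cells. The CD4 call of Akirin2 was lost without any one of the 4 CD4 arrays at 18 h (adjusted p = 0.0501 to 0.0892). The CD8 call was lost in 14 of 16 fits without 1 array (adjusted p = 0.065 to 0.4), with 0.52 (adjusted p = 0.216) when CD8 KO 18 h replicate 2 was left out. Pomp holds CCGGAAG in its promoter window on both strands.

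The COP9 signalosome is a relative of the lid that removes Nedd8 from ubiquitin ligases. Of its 9 genes 8 rose in CD4 WT and 5 in CD8 WT cells, with medians of 0.84 and 0.64. Cops7a gave 7.49 and 7.35 in WT cells at 0 h, 8.52 and 8.32 at 18 h, 6.23 and 6.28 in KO cells at 0 h and 5.83 and 6.02 at 18 h in CD4 cells. In CD8 cells Cops7a gave 7.22 and 7.10 in WT cells at 0 h, 7.95 and 8.04 at 18 h, 6.21 and 6.49 in KO cells at 0 h and 5.91 and 6.44 at 18 h. KO arrays were below WT arrays in all 4 comparisons without overlap, by 1.16, 0.81, 2.50 and 1.82 at 0 h in CD4, 0 h in CD8, 18 h in CD4 and 18 h in CD8 cells, each called. The 18 h calls held in all 16 fits without 1 array, and without CD8 KO 18 h replicate 2 the CD8 difference was -2.09 (adjusted p = 0.000201). At 0 h the CD4 call was lost without any one of its 4 arrays (adjusted p = 0.0559 to 0.0883) and the CD8 call in 14 of 16 fits (adjusted p = 0.0623 to 0.313). Gps1, the subunit that stabilises the complex, was lower in CD4 KO cells at 18 h by 0.82 (SE 0.17, adjusted p = 0.011), a call lost without any one of the 4 CD4 arrays at 18 h (adjusted p = 0.0595 to 0.0924). Of 11 shuttle factors and partners of the p97 segregase, which extracts substrates for the proteasome, 4 rose in CD4 WT cells and 0 in CD8 WT cells, Rad23b by 1.53 and the p97 cofactor Nploc4 by 0.96, and Bag6, a chaperone of stray membrane proteins, was higher in CD8 KO cells at 0 h by 0.93 (adjusted p = 0.0247), a call lost without any one of the 4 CD8 arrays at 0 h (adjusted p = 0.0652 to 0.232).

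The Nfe2l1 axis raises proteasome genes when the protease is short. Of its 10 genes 1 rose and 2 fell in CD4 WT cells, shares near those of all genes. Nfe2l1 was higher in CD4 KO than WT cells at 18 h, at 0.72 (SE 0.18, adjusted p = 0.0301), with 0.04 in CD8 cells, and its CD4 call was lost without any one of the 4 CD4 arrays at 18 h (adjusted p = 0.127 to 0.172). Nfe2l2 and Ngly1, the glycanase that processes the Nfe2l1 protein, fell in CD4 WT cells, by 1.48 and 1.24, and Mafg, a small Maf partner, rose by 1.93. Uba3, of the Nedd8 activating enzyme, was the 1 gene measured of the ubiquitin list, at 0.30 and 0.24 on stimulation without a call.

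Genes of peptide loading and of the interferon response were read beside the immunoproteasome. Of 11 peptide loading genes 2 rose and 4 fell in CD4 WT cells, and 1 rose in CD8 WT cells. Tap1, the peptide transporter encoded next to Psmb9, fell by 1.12 in CD4 WT cells, and H2-D1 and H2-K1 by 1.11 and 1.01, whereas the ER chaperone Canx rose by 0.95. Of 14 interferon response genes 0 rose and 8 fell in CD4 WT cells and 2 rose and 6 fell in CD8 WT cells, with medians of -1.999 and -0.92. Rsad2 fell by 4.11 and 3.72 and Irf7 by 3.12 and 2.60 in CD4 and CD8 WT cells. The 2 that rose in CD8 WT cells were Gbp2, by 2.38, and Socs1, from a mean of 5.975 to 7.29. Each of these calls was lost in 3 of 16 fits without 1 array. Gbp2 differed by 1.53 in CD4 WT cells without a call. Mean values over the 14 genes ran from 8.02 to 8.999 in resting WT arrays, from 6.39 to 6.90 in stimulated CD4 WT and from 7.35 to 8.07 in stimulated CD8 WT arrays. Psmb8, Psmb9 and Psmb10 are lower in the same CD4 arrays, and the part of interferon signaling in their values was not tested. In KO against WT cells 0 of the 14 were called at 0 h in either lineage. At 18 h 1 was lower in each, Ifit2 in CD4 and Socs1 in CD8 cells, beside 4.14% and 1.16% of all genes. Without a call, 13 of 14 in CD4 and 12 of 14 in CD8 cells lay above 0 at 0 h. Their medians were 0.595 and 0.37, beside -0.06 and 0.02 over all genes. Resting array means were 8.72 to 9.27 (KO) and 8.02 to 8.64 (WT) in CD4 cells. In CD8 cells they overlapped, at 8.79 to 9.43 and 8.22 to 8.999. At 18 h the medians were -0.25 and -0.33. The Ifit2 call was lost in 7 of 16 fits without 1 array (adjusted p = 0.0532 to 0.299). The Socs1 call, at -1.31, was lost in 15 of 16 and was kept only without CD8 KO 18 h replicate 1, and without replicate 2 the difference was -0.76 (adjusted p = 0.252).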

How the data were processed

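RNA of 16 samples was amplified in 2 rounds and hybridised to Affymetrix mouse expression arrays. The deposited log2 values had been made by the authors from scanner files with the R package affy, whose version and summary method are not given in the sources used here. Scaling between arrays hides a change in total RNA per cell. Of 22690 probe sets, 20380 name 1 gene, and each of 12393 genes was read from the probe set of highest mean over 16 arrays, with symbols updated to RefSeq GRCm38.p6.

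Means of the 8 groups were fitted in R 4.3.3 with limma 3.58.1, and 15 contrasts were tested over all genes with Benjamini-Hochberg adjustment. A gene was called at an adjusted p under 0.05 and a fold over 1.5. Groups of 2 arrays limit the precision of every value. In data simulated from these arrays, changes of 1 on the log2 scale were recovered in 52% to 64% and of 2 in 95% to 96% of genes over the KO minus WT contrasts. The simulation drew independent noise with 1 spread per gene for all arrays. It held neither the wider gaps between CD8 KO replicates at 18 h nor the correlation of same-numbered samples. Recovery under those conditions was not measured.

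Members and lists were chosen with earlier results of these data known. All members could be named. Values in every array are given for members called between genotypes, for the 4 highest and 4 lowest by mean WT response, for catalytic subunits, activators, the inhibitor and core chaperones, and up to 4 called and 2 uncalled genes of each other list per contrast family. Psma8, among the 4 lowest, is given as a range only. Deviations of same-numbered samples correlated at 0.264 to 0.4505 within CD4 and 0.1821 to 0.5594 within CD8 cells, and negatively between lineages. The labels do not say what a number marks, but the methods state that sorted cells were divided between 0 h and 18 h. Alternatives were another rule for probe sets, centring, a filter on low values, other fold rules, replicate blocks, another prior, dropping the 3 arrays whose 3' to 5' difference was highest, and leaving out each array. Figures were drawn with matplotlib 3.10.9.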

Additional observations from a re-analysis of the deposited data

Results flagged for a closer look

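The difference between genotypes in the response to stimulation was tested directly for every gene, and 2 genes that work beside the proteasome were called. They are 1 of 11 partners and assembly factors and 1 of 9 COP9 genes. The other lists held 11 shuttle, 10 Nfe2l1 axis, 11 peptide loading and 14 interferon genes and 2 GABP subunits. Over all genes, 0.888% were called lower and 0.524% higher in CD4 cells, and 0.226% and 0.0403% in CD8 cells. Pomp, the assembly chaperone of the core, rose on stimulation in WT cells and went down in KO cells in both lineages (called in CD8 KO cells alone). Its mean in KO cells went from 10.75 at 0 h to 10.395 at 18 h in CD4 and from 11.04 to 10.24 in CD8 cells. The difference in response was -1.17 (SE 0.23, adjusted p = 0.0283) in CD4 and -1.67 (SE 0.23, adjusted p = 0.0168) in CD8 cells. The call was kept in 10 of 16 fits without 1 array in CD4 and in 11 of 16 in CD8 cells, with adjusted p = 0.076 to 0.14 and 0.0631 to 0.0937 in the others. Cops7a, a subunit of the COP9 signalosome, differed by -1.33 (SE 0.26, adjusted p = 0.0283) in CD4 cells and kept its call in 8 of 16 such fits, with adjusted p = 0.0528 to 0.134 in the others. Between lineages of WT cells, the response of Psmb10 was higher in CD8 than in CD4 cells by 1.51 (SE 0.25, adjusted p = 0.0292), and that call was kept in 7 of 16 fits.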

How the results depend on the processing

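With 2 arrays a group, calls near the threshold depend on single arrays. Of 97 calls of single proteasome genes, 97 kept their side of the threshold under the filter on low values and with a trend and robust prior. Dropping the minimum fold leaves the p-values as they were and can lose no call, so it is no check. After centring each array on its median 90 kept their side, and with the mean of all probe sets of a gene 77 did. Calls were also lost without the 3 arrays of poorest 3' to 5' difference, which leaves 1 array in some groups. Testing against a fold of 1.5, a stricter question, left 15. The cause of other changes was not tested. Against a fold of 1.5, counts of higher and lower genes between KO and WT were 0 in each contrast, stimulation called 8 higher and 1 lower in CD4 WT, 1 higher in CD8 WT, 1 higher and 3 lower in CD4 KO and 0 of either in CD8 KO cells, CD8 minus CD4 WT at 18 h called 1 higher and 0 lower, and the WT response 0. With the mean of all probe sets of a gene, 1 was higher and 0 lower in CD8 KO at 0 h, 1 was higher on stimulation of CD8 KO, 0 were lower in CD8 minus CD4 WT at 18 h, the median on stimulation of CD4 WT was 0.76, and Ufd1, of the p97 list, turned from 0.60 to -0.0024 in CD4 WT cells. Centring gave 1 higher in CD8 KO at 0 h, 4 lower in CD8 KO at 18 h, 1 lower on stimulation of CD4 WT, and medians of 0.01 for CD8 at 0 h, -0.09 for CD4 at 18 h and 0.78 for stimulated CD4 KO. Without the 3 arrays of poorest 3' to 5' difference, 0 were higher at 0 h and 1 lower at 18 h in CD8 KO, 1 rose and 0 fell on stimulation of CD8 KO, and the WT response called 0. A replicate block within each lineage, where same-numbered arrays are paired, gave 1 higher and 4 lower in CD8 KO at 18 h and 1 lower in the CD4 response, and changed no other call by over 1.5 times. This block was not run for CD8 minus CD4 in WT cells, which lies across blocks.

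Leaving out each array in turn gave, for genes higher on stimulation, 23 to 31 in CD4 WT, 7 to 27 in CD8 WT, 12 to 24 in CD4 KO and 1 to 12 in CD8 KO, and for genes lower, 1 to 3 in CD4 WT and 1 to 5 in CD8 KO. In KO minus WT, 0 to 1 were higher in CD4 and 0 to 2 in CD8 at 0 h, with 0 to 1 lower in CD8 at 0 h, 0 to 4 in CD4 at 18 h and 0 to 11 in CD8 at 18 h. The CD8 response called 0 to 4 lower, the KO effect in CD8 minus CD4 at 18 h 0 to 4 lower, CD8 minus CD4 WT at 18 h 1 to 3 higher and 0 to 1 lower, and the WT response 0 to 1 higher. The highest counts of 11, 5 and 4 lower in CD8 came without CD8 KO 18 h replicate 1, which leaves the array of 3' to 5' difference 3.76 alone.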
